A study of Schmidtea mediterranea with 10 samples.

Results

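The 118 transcripts described here were both higher in sorted planarian stem cells than in the cells sorted away from them, and lower in cells sorted for agat transcripts than in cells without that label. They were chosen by measured values: the log2 ratio P of the piwi-1-positive over the piwi-1-negative library was at least 1.5, and the log2 ratio A of the mean of 4 agat-positive over the mean of 4 agat-negative libraries was at most -0.5. Both ratios were taken on library-size-scaled counts (CPM, counts over the library's assigned total) with 1 added, for genes with a mean of at least 10 CPM over the 8 agat libraries and also over the 2 piwi-1 libraries. Of 36035 counted genes, 7569 reached that level, 303 of these had the required P once piwi-1 itself was set aside, and 118 of the 303 also had the required A. The other 185 are called here the other neoblast-enriched genes. Because A and P selected the members, their values on those 2 ratios are given as a description and carry no test.

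Neoblasts are the adult stem cells of planarians and the only dividing somatic cells of the animal; piwi-1, which encodes a PIWI-family Argonaute protein, marks them. Cells leaving the neoblast pool for the epidermis stop dividing and pass through ordered progenitor states, and agat genes mark the late ones. These genes encode arginine:glycine amidinotransferase, the enzyme of the first step of creatine synthesis.

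The samples came from whole wild-type Schmidtea mediterranea of the clonal asexual strain CIW-4 (C4), which lived at 20 °C and went without food for 2 weeks or more, with no other treatment in any gate. Worms were dissociated and fixed with ACME buffer, labelled by hybridisation chain reaction (HCR) with probes to transcripts, and sorted by flow cytometry before amplification of polyA RNA. The 4 gates were agat-positive cells (probes to agat-1, agat-2 and agat-3 in 1 pool, 4 libraries), agat-negative cells of the same label (4 libraries), piwi-1-positive cells (1 library) and piwi-1-negative cells (1 library). The negative gates are mixtures of all other cells of the worm, so the agat-negative gate also holds neoblasts, and every library is RNA of cells from pooled worms. In such bulk samples fewer cells of a type and less RNA per cell cannot be told apart. The labels call the agat libraries biological replicates 1 to 4, and p-values measure the spread between these libraries. The files do not pair the transcript IDs with gene names, so members are given by ID, and no role is attached to them.

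The 10 libraries held between 35081410 and 51821158 counts assigned to genes. Reads in the rows that name no gene made up 22.8% to 37.0% of a library, with the highest share in agat-negative replicate 4. The piwi-1 transcript had 1267 CPM in the piwi-1-positive library, against 199.9 CPM in the piwi-1-negative library. In the agat-positive libraries agat-1 had 1627, 305, 234 and 1564 CPM, against 14.7, 33.6, 94.6 and 28.4 CPM in the agat-negative libraries. The transcripts agat-2 and agat-3 showed the same layout, for agat-3 with 725, 146, 119 and 643 CPM in the agat-positive libraries, against 1.26, 16.2, 29.4 and 6.92 CPM in the agat-negative libraries. The probe targets followed their labels, but agat-positive replicates 2 and 3 held far less agat-1 than replicates 1 and 4. The piwi-1 transcript had 180, 382, 393 and 309 CPM in the agat-positive libraries, against 573, 472, 545 and 398 CPM in the agat-negative libraries. It would itself have met the rule, with A of -0.65 and P of 2.66, and was left out because it was a sort target.

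Low agat values were more frequent among neoblast-enriched genes than among genes in general. Of the 303 neoblast-enriched genes, 118 (38.9%) had A of -0.5 or less, against 8.96% of all 7569 genes at the level. Read from the other side, 118 of the 677 genes with such an A, piwi-1 aside, had P of 1.5 or more (17.4%), against 4.02% of all genes at the level. The 2 ratios come from separate libraries, and no test of this overlap was made. The share by class of neoblast enrichment depended on the scale. In CPM it was 28.0% (46 of 164 genes) for P from 1.5 to 2, 56.3% (63 of 112) for P from 2 to 3, and 33.3% (9 of 27) for P of 3 or more. In TMM-scaled CPM it was 37.7%, 37.7% and 25% (5 of 20 genes) in these 3 classes, and in TPM 33.5%, 62.4% and 62.2%, so the order of the classes differed between scales. The median A in CPM was -0.28, -0.56 and -0.29 in them. Genes with little difference between the piwi-1 gates, with P between -0.5 and 0.5, had the smallest share, 4.80% of 3166 genes. Genes with P below -1.5, which are low in the neoblast gate, had a share of 23.9% (39 of 163), so a low A was not particular to neoblast-enriched genes.

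**Figure D1:**
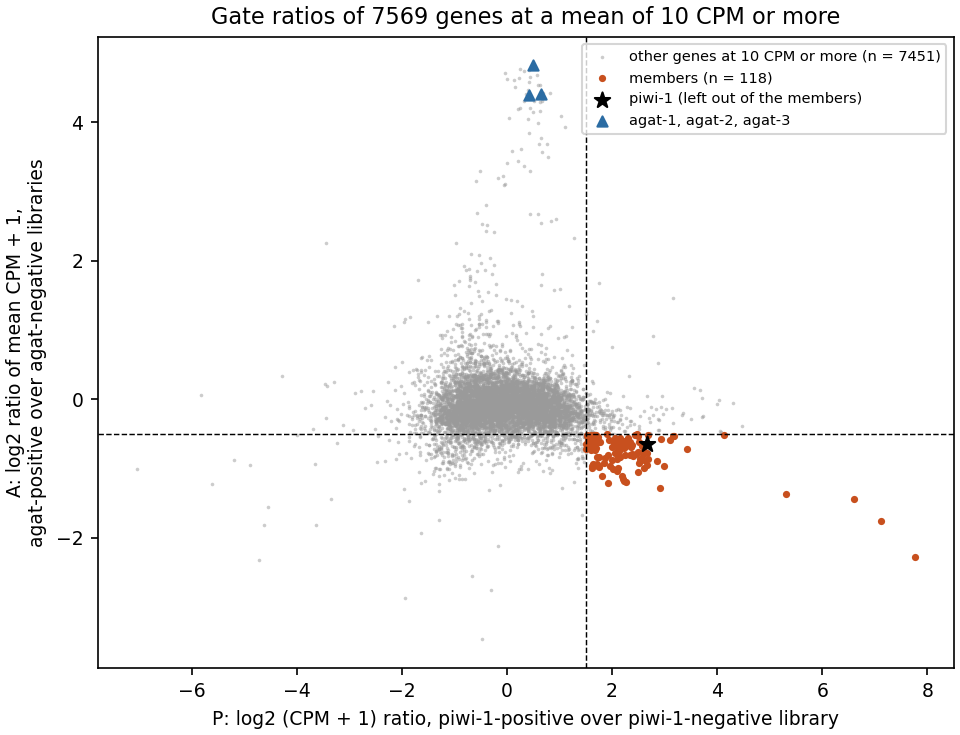
Each point is 1 of 7569 genes, with P (log2 of the CPM + 1 ratio, piwi-1-positive over piwi-1-negative library) on the horizontal axis and A (log2 of the mean CPM + 1 ratio, agat-positive over agat-negative libraries) on the vertical axis; dashed lines mark the thresholds. Most of the 118 members lie just past the thresholds beside piwi-1, and 4 lie far to the right with P above 5.

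Among the members A ran from -2.28 to -0.50 with a median of -0.69, beside a median of -0.11 over all genes at the level. Only 14 members had A of -1 or less, and 1 had A of -2 or less. P ran from 1.51 to 7.76 with a median of 2.11; it was 2 or more in 72 members, 3 or more in 9 and 4 or more in 5. The ratio of the agat-negative mean over the agat-positive mean had a median of 1.66 and ran from 1.43 to 5.05. The piwi-1 side is larger, with a median ratio of 4.57 between the single libraries.

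The thresholds cut through a continuous range. SMED30034335 and SMED30006639 entered with A of -0.5005 and -0.508, while SMED30029980 and SMED30031186 stayed outside with A of -0.4998 and -0.496. On the P side SMED30012568 and SMED30002668 were inside at 1.51 each, and SMED30016021 and SMED30003262 were outside at 1.497 and 1.482. At the level minimum of the agat libraries, SMED30027419 and SMED30030543 were inside with means of 10.1 and 10.2 CPM, and SMED30028218 and SMED30034829 were outside with 9.94 and 9.93 CPM. In the piwi-1 libraries the lowest members, SMED30000475 and SMED30000619, had means of 14.2 CPM each, and the nearest genes outside, SMED30021437 and SMED30005845, had 8.28 and 7.84 CPM.

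In the main body of the set the difference was small, shared and visible library by library. SMED30019803, an abundant member, had 219, 320, 335 and 313 CPM in the agat-positive libraries, against 464, 412, 427 and 522 CPM in the agat-negative libraries. The 2 gates did not overlap, and agat-positive replicate 1 was the lowest of all 8. Its mean was 297 ± 52.6 CPM over the agat-positive libraries and 456 ± 48.7 CPM over the agat-negative libraries (SD, n = 4 each), with A of -0.62. In the piwi-1-positive library it had 1082 CPM, against 314 CPM in the piwi-1-negative library, a ratio of 3.44 with a 95% interval of 3.37 to 3.52 that covers counting error only.

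SMED30027419, one of the lowest members by level, showed the same layout. It had 4.47, 8.06, 6.79 and 7.94 CPM in the agat-positive libraries, against 16.6, 11.6, 13.7 and 11.3 CPM in the agat-negative libraries. Again no library of one gate reached into the range of the other. In the piwi-1-positive library it had 48.2 CPM, against 7.07 CPM in the piwi-1-negative library.

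In some members 1 agat-negative library stood far above the rest of its gate. SMED30006456 had 3.92, 9.75, 9.98 and 6.84 CPM in the agat-positive libraries, against 15.5, 16.2, 13.0 and 35.2 CPM in the agat-negative libraries. The gates did not overlap, and agat-negative replicate 4 stood above the other libraries of its gate. Without that library the A of SMED30006456 was -0.88 in place of -1.28. SMED30031804 had 224, 452, 308 and 357 CPM in the agat-positive libraries, against 364, 489, 655 and 1594 CPM in the agat-negative libraries. For SMED30031804 the gates overlapped, and without agat-negative replicate 4 its A was -0.58 in place of -1.21. Its 490 CPM in the piwi-1-positive library lay below its agat-negative mean of 776 ± 558 CPM (SD, n = 4), although the piwi-1-negative library held only 129 CPM.

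A different shape was seen in the members with the next largest P. SMED30000994 had 14.9, 14.1, 14.3 and 12.6 CPM in the agat-positive libraries, against 29.4, 23.7, 18.6 and 9.93 CPM in the agat-negative libraries, and 586 CPM in the piwi-1-positive library, against 32.6 CPM in the piwi-1-negative library. SMED30011920 had 25.7, 21.7, 23.2 and 19.1 CPM in the agat-positive libraries, against 56.7, 37.7, 32.5 and 23.8 CPM in the agat-negative libraries, and 712 CPM in the piwi-1-positive library, against 65.2 CPM in the piwi-1-negative library. For both, the agat-positive libraries were nearly level with each other, agat-negative replicate 1 was highest and agat-negative replicate 4 lowest of its gate. That lowest value was under all agat-positive libraries for SMED30000994 and inside their range for SMED30011920. Every agat library held less of either transcript than the piwi-1-negative library. Their A was -0.52 and -0.72, and for each it stood above -0.5 without agat-negative replicate 1, at -0.30 for SMED30000994 and -0.47 for SMED30011920.

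**Figure D2:**
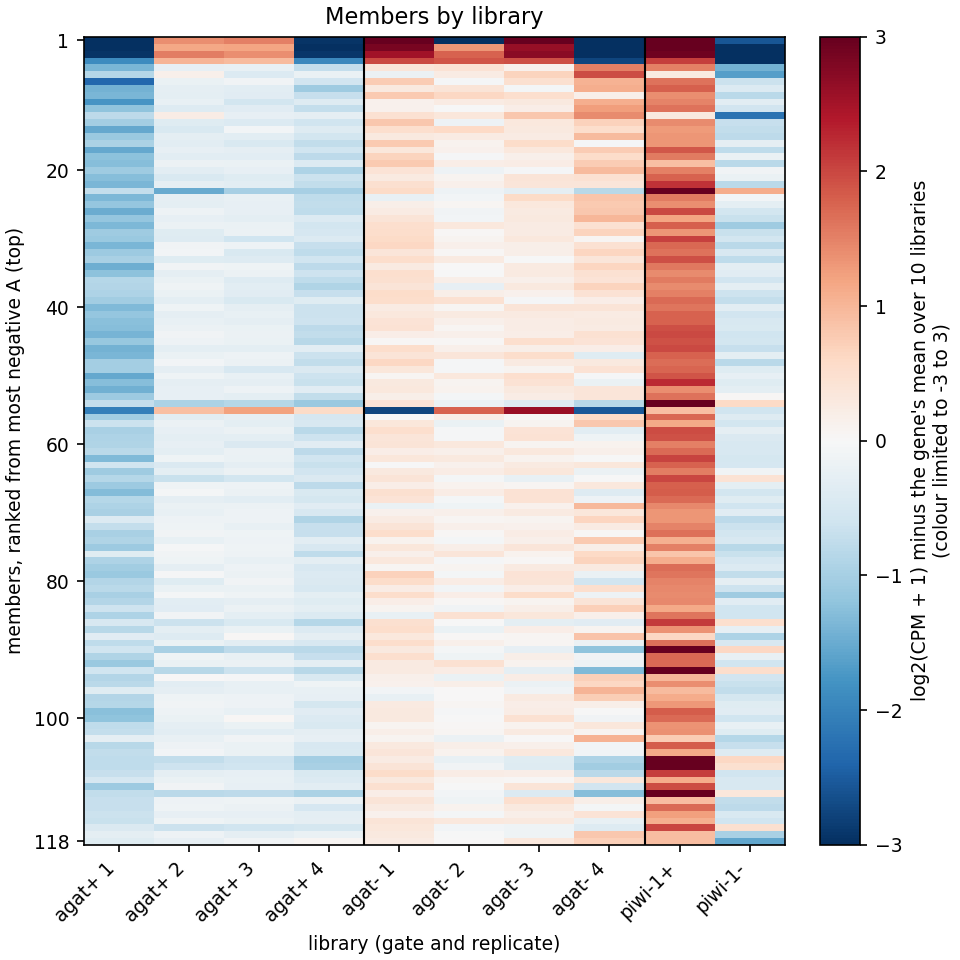
Rows are the 118 members, ranked from the most negative A at the top, and columns are the 10 libraries; colour gives log2(CPM + 1) minus the gene's own mean over the 10 libraries, limited to -3 to 3. The agat-positive replicate 1 column holds the lowest agat-positive value for 102 of 118 members, the piwi-1-positive column is red throughout, and 5 rows swing widely inside both agat gates.

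Counted over the set, 82 of 118 members had all 4 agat-positive libraries below all 4 agat-negative libraries in CPM, and the gates overlapped in 36. The same held for 9.18% of all genes at the level; the rule used this contrast, so nothing is read from the difference. After scaling by trimmed mean of M-values (TMM), which matches libraries on the bulk of genes, it held for 67 members and for 4.25% of all genes. Among the other neoblast-enriched genes 19 of 185 had non-overlapping gates in this direction in CPM.

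The agat-positive libraries were unequal, and the members followed that inequality. Against the mean of the agat-negative libraries, the median log2 deviation of the members was -1.24, -0.45, -0.45 and -0.79 in agat-positive replicates 1, 2, 3 and 4, and 0.13, -0.15, -0.01 and 0.07 in agat-negative replicates 1, 2, 3 and 4. The other neoblast-enriched genes gave -0.22, -0.16, -0.15 and -0.21 in the agat-positive and 0.28, 0.11, 0.06 and -0.37 in the agat-negative libraries. The members thus stood lowest in replicate 1, next lowest in replicate 4 and least low in replicates 2 and 3. The medians of the other neoblast-enriched genes lay within 0.1 of each other across all 4. Those genes are the ones with A above -0.5 in these libraries, so the rule itself contributes to this contrast. All genes at the level gave -0.185, 0.003, -0.002 and -0.129 in the agat-positive libraries, so in CPM a weaker form of this order was general. In TMM-scaled CPM the members gave -1.08, -0.44, -0.44 and -0.66 in the agat-positive libraries, in the same order. The other neoblast-enriched genes gave -0.06, -0.14, -0.14 and -0.08 there, and all genes -0.015, 0.022, 0.011 and -0.001.

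**Figure D3:**
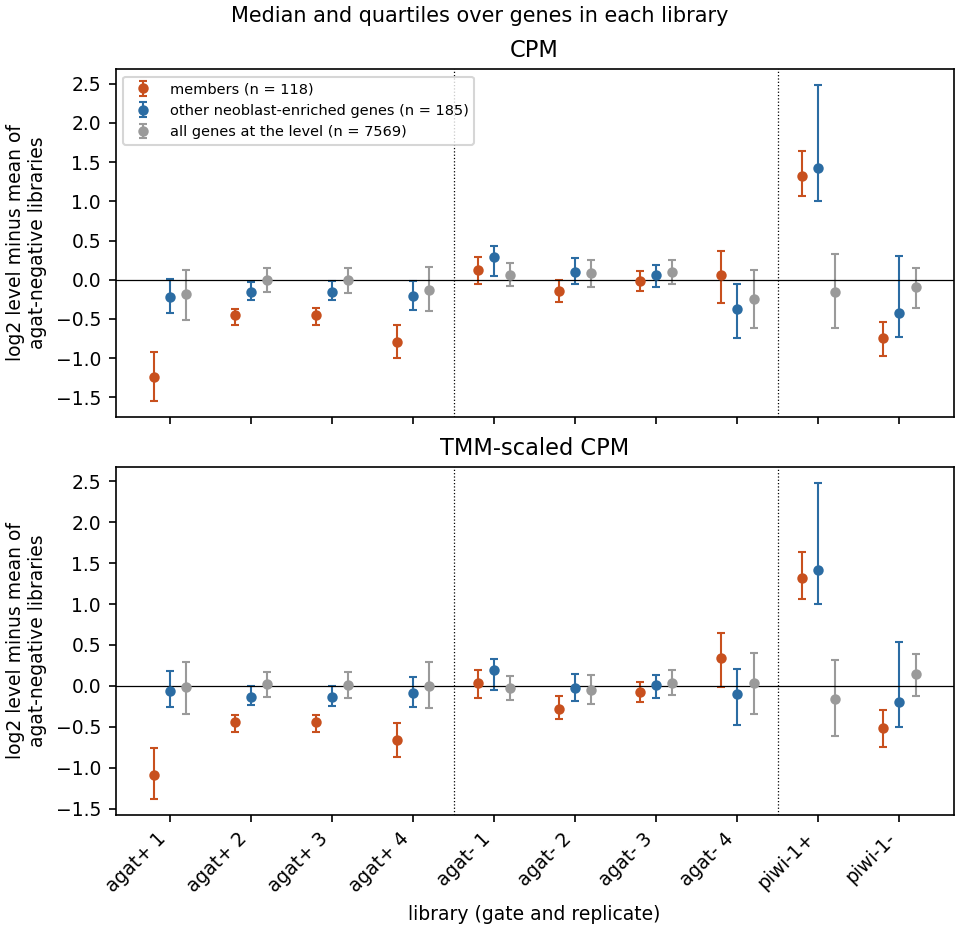
Points are medians and bars quartiles over genes of the log2 level minus the mean log2 level of the agat-negative libraries, for the 118 members, the 185 other neoblast-enriched genes and all 7569 genes at the level, in CPM (top) and TMM-scaled CPM (bottom). The members sit lowest in agat-positive replicates 1 and 4. In CPM the other neoblast-enriched genes and all genes are slightly lower there too, and in TMM-scaled CPM the other neoblast-enriched genes are not. Both neoblast-enriched sets stand well above 0 in the piwi-1-positive library.

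Gene by gene, agat-positive replicate 1 was the lowest agat-positive library for 102 of 118 members (86.4%) in CPM, against 35.7% of the other neoblast-enriched genes and 45.6% of all genes at the level. In TMM-scaled CPM it was the lowest for 96 members (81.4%), against 22.7% of the others and 33.2% of all genes. The full order, with replicate 1 below replicate 4 and replicate 4 below both replicates 2 and 3, was met by 88 members (74.6%), against 28 of the 185 others (15.1%) and 33.3% of all genes. In TMM-scaled CPM 72 members (61.0%) had that order, against 5.95% of the others and 22.9% of all genes. This order within the agat-positive gate was not part of the rule, which used only the mean of the gate. But a gene that is low in replicate 1 reaches a low mean more easily, so the choice is not independent of it. For the same reason such genes are less easily found among the other neoblast-enriched genes.

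Across the same libraries agat-1 ran opposite to the members, and piwi-1 ran the same way as they did. Replicates 1 and 4, where the members were lowest, held 1627 and 1564 CPM of agat-1, and replicates 2 and 3 held 305 and 234 CPM. The transcript of piwi-1 was at 180 CPM in replicate 1 and 309 CPM in replicate 4, against 382 and 393 CPM in replicates 2 and 3. With 4 libraries no correlation is given, and the part of these target levels in the values of the members was not tested.

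As a share of all assigned counts, the members made up 0.291%, 0.682%, 0.702% and 0.495% of the agat-positive libraries, against 0.806%, 0.945%, 1.33% and 0.771% of the agat-negative libraries. They made up 2.30% of the piwi-1-positive and 0.448% of the piwi-1-negative library. The agat-positive and agat-negative libraries did not overlap, at 0.542 ± 0.192% and 0.963 ± 0.256% (SD, n = 4 each). The members were chosen for a lower agat-positive mean in these same libraries, so nothing is read from that separation. Without the 5 members described below that vary strongly inside the gates, the shares were 0.265%, 0.429%, 0.415% and 0.356% in agat-positive libraries, against 0.615%, 0.537%, 0.591% and 0.753% in agat-negative libraries.

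Across the 4 gates the members were highest in piwi-1-positive cells, next in agat-negative cells and lowest in the other 2 gates. The median member had 18.6 CPM in agat-positive cells, 29.2 CPM in agat-negative cells, 86.2 CPM in piwi-1-positive cells and 16.9 CPM in piwi-1-negative cells. The other neoblast-enriched genes had medians of 19.2, 22.8, 71.7 and 19.0 CPM in the same gates. The typical member was thus about as low in agat-positive cells as in cells from which piwi-1-positive cells had been removed. Its agat-positive mean was below both piwi-1 libraries in 50 members, between them in 68 and above both in 0. It was below both in 42.4% of members, 36.8% of the other neoblast-enriched genes and 14.4% of all genes at the level. The agat-negative mean lay between the piwi-1 libraries in 105 members, below both in 10 and above both in 3. Among the other neoblast-enriched genes the agat-negative mean was below both piwi-1 libraries in 62 of 185. The piwi-1 and agat gates were sorted with different probes, and with 1 piwi-1 library per gate these positions have no replicate check.

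**Figure D4:**
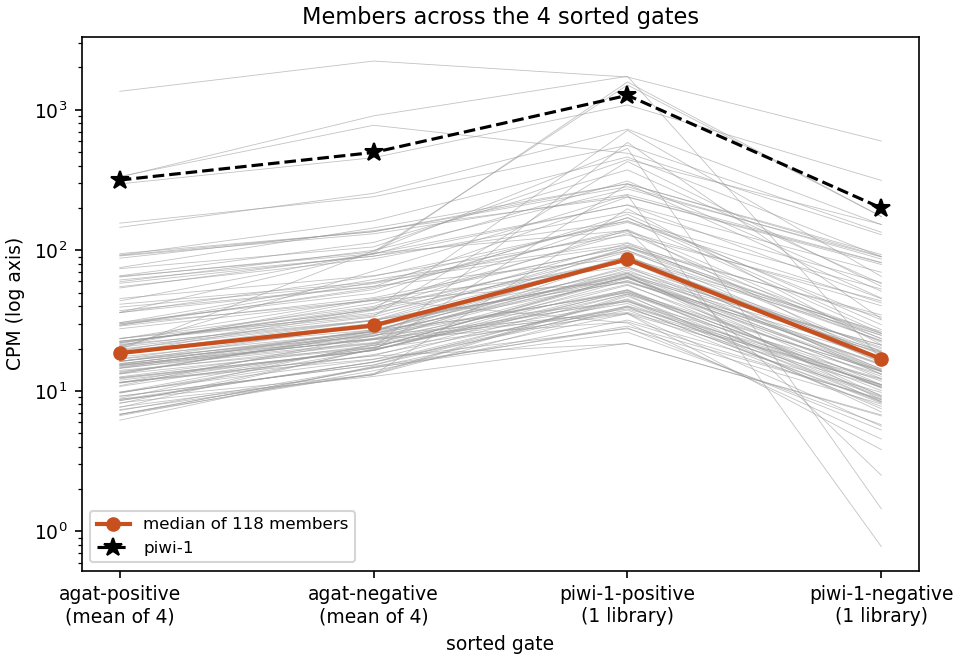
Grey lines give each of the 118 members in CPM (log axis) as the mean of 4 agat-positive libraries, the mean of 4 agat-negative libraries, the piwi-1-positive library and the piwi-1-negative library; the red line is the median of the members and the dashed line piwi-1. The median runs 18.6, 29.2, 86.2 and 16.9 CPM, and a few lines drop to about 1 CPM in the piwi-1-negative library.

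The members with the largest P behaved unlike the rest. Within both agat gates 5 members spanned at least a 5-fold range of CPM + 1 between their lowest and highest library; such a range was met by 4.24% of members, 2.16% of the other neoblast-enriched genes and 1.31% of all genes at the level. This description was chosen after the values had been seen. They are SMED30019617, SMED30020535, SMED30027307, SMED30025454 and SMED30002668, and the first 4 of them also have the 4 largest P and the 4 most negative A of the set.

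SMED30027307 had 28.8, 661, 607 and 29.3 CPM in the agat-positive libraries, against 1309, 781, 1509 and 23.0 CPM in the agat-negative libraries. It had 1730 CPM in the piwi-1-positive library, against 16.8 CPM in the piwi-1-negative library, a ratio of 103 with an interval of 95.2 to 112 for counting error. Its low libraries were agat-positive replicates 1 and 4, agat-negative replicate 4 and the piwi-1-negative library, so the agat-positive range lay inside the agat-negative one.

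SMED30025454 had a like layout at a lower level, with 7.94, 66.5, 62.7 and 7.67 CPM in the agat-positive libraries, against 129, 121, 127 and 3.89 CPM in the agat-negative libraries. The piwi-1-positive library held 138 CPM of it, against 2.51 CPM in the piwi-1-negative library. SMED30020535 had 0.969, 39.6, 40.3 and 0.837 CPM in the agat-positive libraries, against 129, 44.6, 110 and 1.13 CPM in the agat-negative libraries. It had 247 CPM in the piwi-1-positive library, against 0.780 CPM in the piwi-1-negative library. Whether these transcripts share reads was not tested, so they may not be separate observations. For these 3 members the same 4 libraries were low, and agat-positive replicates 2 and 3 lay below agat-negative replicates 1 to 3.

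SMED30019617, the member with both the most negative A and the largest P, had 0.402, 37.1, 40.1 and 0.898 CPM in the agat-positive libraries, against 214, 0.756, 182 and 0.0827 CPM in the agat-negative libraries. Here agat-negative replicate 2 was low as well, and the last value rests on 3 counts. The piwi-1-positive library held 531 CPM, against 1.45 CPM in the piwi-1-negative library, from 18613 and 52 counts. Its A of -2.28 therefore compares 2 high libraries of 4 in agat-positive with 2 of 4 in agat-negative cells, and its SD exceeded its mean in both gates, at 19.6 ± 22.0 CPM over the agat-positive and 99.2 ± 115 CPM over the agat-negative libraries (n = 4 each).

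SMED30002668 had 220, 1720, 2115 and 1355 CPM in the agat-positive libraries, against 135, 3135, 5461 and 155 CPM in the agat-negative libraries. Its low libraries were agat-positive replicate 1 and agat-negative replicates 1 and 4, a pattern unlike that of the other 4. It had 1710 CPM in the piwi-1-positive library, against 599 CPM in the piwi-1-negative library. Its A of -0.72 turned to 0.24 without agat-negative replicate 3, so the direction of this member rests on 1 library. It was the most abundant member in CPM but not per length, where SMED30027307 was highest, with 1260 ± 939 TPM (the authors' length-scaled transcript abundance) against 337 ± 393 TPM for SMED30002668 in agat-negative cells (SD, n = 4 each).

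**Figure D5:**
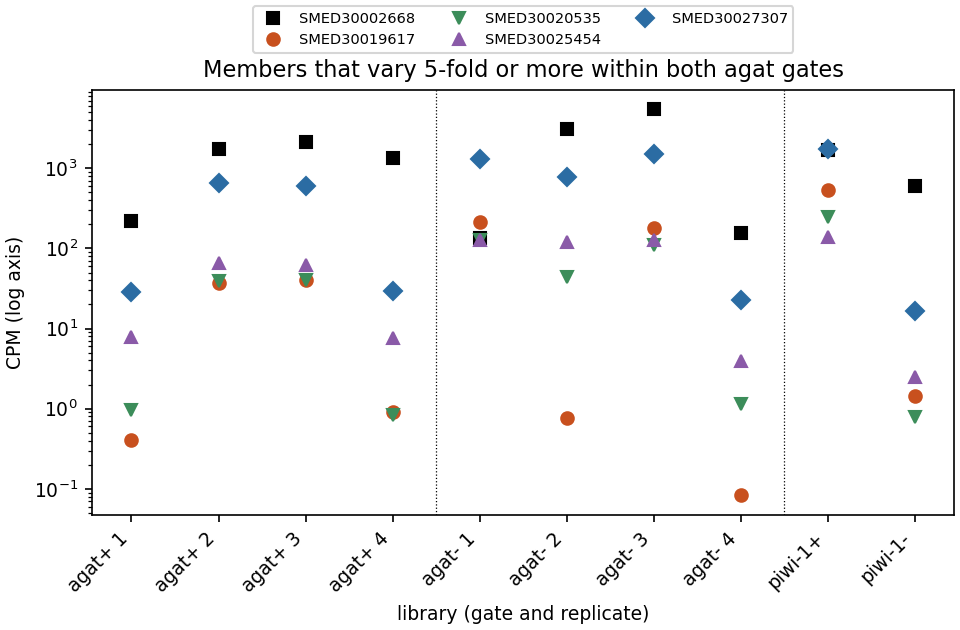
CPM on a log axis of the 5 members that spanned at least a 5-fold range inside both agat gates, in each of the 10 libraries. The circle, downward triangle, diamond and upward triangle are all low in agat-positive replicates 1 and 4, agat-negative replicate 4 and the piwi-1-negative library, while the square, SMED30002668, is low in agat-positive replicate 1 and agat-negative replicates 1 and 4.

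Libraries numbered 4 and those numbered 1 to 3 were compared in 1 model with the gate, since the deposited columns of number 4 are named in another form; what else set them apart was not given in the sources used here. In edgeR's quasi-likelihood test with Benjamini-Hochberg adjustment no gene passed an adjusted p of 0.05 in either direction (0% of 22954 genes higher and 0% lower). At an unadjusted p under 0.05, 20 members were higher in number 4 (background 6.96%) and 3 were lower (background 5.83%). DESeq2 called 0 members higher (background 0.112%) and 3 lower (background 0.215%). The 20 depended on scaling, on the genes tested and on the libraries used. Among genes with a mean of 10 CPM or more, 16 members were higher and 3 lower, beside 898 and 768 of 8374 genes. All members lie at that level. With library sizes alone 5 members were higher and 8 lower, beside 531 and 2265 of all 22954 genes. Without agat-negative replicate 1, 2 or 3 there were 12, 9 and 11 members higher. Beside these stood 1098 of 23589, 984 of 23404 and 1015 of 23448 genes. Without agat-negative or agat-positive replicate 4, only 1 library of number 4 remains. The median log2 change of the members was then -0.04 and 0.47, against -0.02 and -0.08 for all genes tested.

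The same edgeR test of agat-positive against agat-negative libraries, over 22954 genes, called 0 members lower at an adjusted p of 0.05, and 0% of all genes lower. At an unadjusted p under 0.05 it had 94 of 118 members lower, beside a background of 5.38%. DESeq2 called 8 members lower, beside a background of 0.222% of 34750 genes. Since the rule used this contrast, these counts describe the size of the difference against the spread between libraries and are no evidence for it. By the edgeR measure, no single member was separated beyond the spread between libraries after adjustment for the number of genes. Nor did this test call the transcripts that the agat probes target. Its log2 change was 4.61 for agat-1 (adjusted p 0.200), 4.58 for agat-2 (0.200) and 5.10 for agat-3 (0.207). It called 2 of 22954 genes, so the 0 for members does not set them apart from genes with larger differences.

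The rule was also applied with 1 replicate number left out, and the genes so chosen were read in the positive and negative library of that number. In this comparison the other neoblast-enriched genes are those with the required P that were not chosen that time, not the fixed set defined above. In CPM they numbered 225, 177, 167 and 183 without numbers 1, 2, 3 and 4, and held 44, 4, 3 and 18 of the members. Without number 1, 80 genes were chosen, and their median log2 difference in the libraries of number 1 was -1.43, against -0.58 for the other neoblast-enriched genes and -0.26 for all genes. The sets chosen without number 3 (130 genes) and number 4 (127 genes) had medians of -0.43 and -0.48 in the libraries left out, against -0.18 and 0.06 for the other neoblast-enriched genes and -0.11 and 0.16 for all genes. The set chosen without number 2 (125 genes) had -0.27, against -0.30 for the other neoblast-enriched genes and -0.09 for all genes. Lower values thus recurred in the libraries of all 4 numbers, but in number 2 the chosen genes were not lower than other genes of the neoblast gate. The same was seen for number 2 in TMM-scaled CPM, at -0.13 for the 82 chosen genes, -0.21 for the others and 0.06 for all genes. In each case the piwi-1 libraries of the rule were the same, and 1 library stood against 1, so no test was made.

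In level and in a measure of transcript length the members resembled the rest of the neoblast-enriched genes. Their median mean level was 22.0 TPM, against 19.6 TPM for the others and 22.7 TPM for all genes at the level. The log2 ratio of CPM over TPM, which grows with transcript length, had medians of 0.70, 0.76 and 0.57 in these sets. P was somewhat larger, with a median of 2.11 against 1.84 for the others. The spread inside the agat-positive gate was larger, with a median coefficient of variation of 0.259 against 0.118 for the others and 0.134 for all genes. Among agat-negative replicates 1 to 3 it was alike, at 0.134 for members and 0.131 for the others. These are values across genes, which are not independent replicates, and they carry no test.

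Membership depended on how libraries were scaled. In TMM-scaled CPM 71 genes met the rule, all of them among the 118. In the authors' TPM 169 genes met it, of which 78 were members. Only 47 members met it in CPM, TMM-scaled CPM and TPM alike. Genes at the level with P of 1.5 or more, piwi-1 aside, numbered 303 in CPM, 195 in TMM-scaled CPM and 365 in TPM. The neoblast enrichment, from single libraries, thus also depended on the scale. The median A of all genes at the level was -0.02 in TMM-scaled CPM and -0.26 in TPM, against -0.11 in CPM, and the median A of the 118 members was -0.62, -0.84 and -0.69 on these scales. Measured from the median of all genes, the members therefore stood at a similar distance on each scale. Scaling by TMM moves A of all genes nearly alike, and the members were chosen by A in CPM, so this is a description only.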

How the data were processed

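RNA of 10 sorted populations was sequenced after SMART-seq v4 amplification and Nextera XT library preparation, per the labels' protocols. The authors deposited a table of counts per gene for all libraries and a table of TPM; STAR 2.7.10b and RSEM 1.3.1 are named in the submitters' processing notes, and neither the genome build nor the strand setting of the counting was given to work from. The first 4 rows of the count table name no gene and were left out of library sizes.

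From the counts, CPM, A, P and the members were computed as the report states. The members and the lists were chosen with earlier results of these data known. Tests over all genes used edgeR 4.0.16 (quasi-likelihood, TMM factors, filterByExpr, robust), with DESeq2 1.42.0 and limma 3.58.1 (on log2 of TPM + 1) as alternatives, in R 4.3.3, all two-sided with Benjamini-Hochberg adjustment. On simulated counts for 8381 genes the edgeR fit of the agat gates recovered 95% of 100 genes changed by 2 on the log2 scale, with 5 false calls. Only 1 member had A of -2 or less, so the simulation does not show how well changes of the members' size are recovered. Intervals of piwi-1 ratios are exact (Clopper-Pearson, 95%), reads carry no molecular identifiers, and intervals cover counting error only. No libraries were duplicates by a chi-square comparison of their counts. Named genes are the 4 probe targets and, of the members, the 6 with the most negative A, the 6 with the largest P, the 4 with the highest mean CPM and the 2 nearest on each side of each threshold. No transcript or promoter sequence was used here.

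Same-numbered agat libraries did not deviate together from their gate means. Alternatives tried were other scalings, level minimums, thresholds and pseudocounts, a block for the replicate number, and leaving out libraries.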

Additional observations from a re-analysis of the deposited data

Results flagged for a closer look

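In each gate of 4 libraries the highest or lowest value was set against the rest of the gate, for 52 gene or summary values. In 3 of them a library stood apart by Dixon's criterion for groups of 4, and all 3 were in agat-negative replicate 4; chance alone flags about 1 in 20. SMED30025454 had 3.89 CPM there, against 121 to 129 CPM in the other agat-negative libraries. SMED30006456 had 35.2 CPM there, against 13.0 to 16.2 CPM in the others. The median log2 deviation of all genes at the level was -0.25 in that library, against 0.07 to 0.09 in the others. The same library had the largest share of unmapped reads, 34.5%, and its part in the values of the members was not tested.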

How the results depend on the processing

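The median A of the 118 members was -0.57 to -0.84 under the alternatives tried. They were chosen for low A in these same libraries, so a negative median was nearly fixed in advance. Non-overlapping gates were met by 65 to 104 members, the highest without the libraries numbered 4, where fewer libraries make non-overlap easier. The share over all genes was taken only in CPM (82 members, 9.18% of genes) and TMM-scaled CPM (67 members, 4.25%). The number of genes meeting the rule was 71 with TMM, 73 with DESeq2 size factors, 186 at a level minimum of 5 CPM, 69 at 20 CPM, 280 with none, 14 at A of -1, 186 at P of 1 and 72 at P of 2. It was 91 to 133 when 1 library was left out. In 2 alternatives chosen after seeing the data, both with TMM, it was 60 without the libraries numbered 4 and 59 without agat-positive replicate 1. The share of neoblast-enriched genes with A of -0.5 or less was 32.7% with DESeq2 size factors and 46.3% in TPM. It was 29.2% without agat-positive replicate 1, 33.0% without agat-negative replicate 1 and up to 43.6% without 1 other library.

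In edgeR's test of the agat gates over all genes the 2 calls became 1 with library sizes alone, 0 at a mean of 10 CPM or more, 0 in limma on TPM, 0 without the libraries numbered 4 (added after seeing the data), 477 in DESeq2 and 0 to 98 with 1 library left out. For number 4 against 1 to 3 the count of 0 became 114 in DESeq2 and 0 to 3599 with 1 library left out. The highest is without agat-positive replicate 4, where agat-negative replicate 4 stands alone and is assumed to vary like the others. The median log2 change in that fit was 0.47 for the members and -0.08 for all genes tested. The A of SMED30002668 was 0.24 without agat-negative replicate 3 and -1.11 to -0.36 without another library. Causes of these changes were not tested.

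Same-numbered libraries share only a number, with correlations of their deviations from -0.14 to 0.08. With the replicate block the share was 32.3% and the agat test had 0 calls.

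The piwi-1 gates have 1 library each, so P has counting error only. The lowest value printed rests on 3 counts (SMED30019617 in agat-negative replicate 4), and the spread between 4 libraries per gate limits the tests.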
